A study of Mus musculus with 14 samples.

Results

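The chemokine receptors of blood leukocytes followed here were Cxcr3, Cxcr4, Cxcr5, Cxcr6, Ccr1, Ccr6, Ccr7, Ccr9 and Ccrl2. They were chosen as the 9 listed symbols, out of 20022 genes named on the array, to which the identifiers of non-control probes map, and 10 of 55681 non-control probes belong to them. Cxcr6 has 2 probes and each of the others has 1. RNA from blood cells was hybridised to 14 one-colour Agilent mouse arrays, 1 for each mouse per the labels. The SS mice had met a hostile or adverse social environment in the third postnatal week, and the SI mice had been isolated from company as juveniles. All of them had been conditioned with cocaine at 5 mg/kg, a dose described as under threshold, had gone through extinction and withdrawal, and were bled 24 hours after withdrawal. The groups were 4 SS mice labelled male (mice 1, 2, 3 and 01b), 4 SI mice labelled male (mice 4, 5, 6 and 7), 4 SS mice labelled female (mice 20, 21, 22 and 23) and 2 SI mice labelled female (mice 27 and 28). No mouse without early social stress or without cocaine was included, and the sources used here give neither strain nor age. The labels call the cells PBMC, but they name only lysis of red cells and no gradient or sort.

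Chemokine receptors are G protein-coupled receptors that steer leukocytes along gradients of secreted chemokines. Cxcr5 and Ccr7 guide lymphocytes into the follicles and T cell zones of lymphoid tissue, Ccr6 and Ccr9 guide them to mucosal surfaces and the gut, Cxcr3 and Cxcr6 guide activated T and NK cells into inflamed tissue, and Cxcr4 retains leukocytes in bone marrow. Ccrl2 is an atypical member: it binds the attractant chemerin and presents it to other cells, and it is not known to signal like the others.

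Level is given below as scaled log2 signal, which is the log2 of the processed fluorescence of a probe after each array was scaled to a common 75th percentile. A difference of 1 on this scale is a doubling, and levels of different probes are not comparable with each other. A probe was called well above background by the scanner software. By that flag Cxcr3, Cxcr4, Cxcr5, Cxcr6 (both probes), Ccr6 and Ccr7 were above background on 14 of 14 arrays. Ccrl2 was above background on 13 of 14 arrays, missing only SS labelled female 23. Ccr9 was above background on 8 of 8 arrays of labelled males and on 0 of 6 arrays of labelled females. Ccr1, a receptor of monocytes and neutrophils for Ccl3 and Ccl5, was above background on 0 of 14 arrays. The weaker flag, positive and significant, was set for Ccr1 on 3 arrays, and its change between SS and SI was not tested. So 8 of the 9 receptors entered the test, which took the 24011 probes above background on at least 6 arrays.

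Several facts of the arrays bear on every value. Every array labelled male sits on slide 1 and every array labelled female on slide 2, so the sex label and the slide cannot be told apart. Y-linked genes went against the sex labels: Eif2s3y and Ddx3y were above background on 0 of 8 arrays labelled male and on 6 of 6 arrays labelled female. X-linked Xist was above background on 5 of 8 arrays labelled male and on 0 of 6 arrays labelled female. The words labelled male and labelled female are therefore used throughout. SS arrays lie in columns 3 and 4 and SI arrays in columns 1 and 2 of the slides, so stress group and column cannot be told apart either. The arrays of SS labelled females 20 and 21 had a median absolute log2 difference of 0.104 over 14501 probes. Spots of the same probe within an array differed by 0.104 on the array of mouse 20 and by 0.115 on the array of mouse 21, while the next closest pair of arrays on a slide differed by 0.284. The pair agreed within this technical noise over those probes, which do not include the probes of Ccr9 and Ccrl2. The arrays of mice 20 and 21 had 1.68 and 2.93 for Ccr9, above background on neither, and 4.18 and 4.58 for Ccrl2. The pair was averaged and counted as 1 sample, which leaves 13 samples, with 3 SS against 2 SI among labelled females. That choice was made after the values with 14 samples had been seen, and it decides the call on Ccr9 described below.

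On the slide of labelled males 2 arrays stood nearer to the other stress group than to their own. The array of SS labelled male 3 differed by between 0.377 and 0.507 from SI males 5, 6 and 7, and by between 0.651 and 0.787 from SS males 1, 2 and 01b. The array of SI labelled male 4 differed by between 0.43 and 0.57 from SS males 1, 2 and 01b, and by between 0.922 and 1.32 from SI males 5, 6 and 7. The same sets differed in brightness before scaling. The 75th percentile of the log2 signal was 9.40, 9.12 and 9.03 in SS males 1, 2 and 01b and 8.53 in SI male 4, against 9.87 in SS male 3 and 9.91, 10.12 and 10.40 in SI males 5, 6 and 7. No label was changed. Receptor changes on this slide are therefore also given without SS male 3 and without SI male 4, 1 at a time.

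Promoter sequences are shown for the 2 receptors whose SS and SI levels passed the test, Ccrl2 and Ccr9, and for Cxcr4, one of the lymphocyte receptors whose levels moved together. They are RefSeq windows of build GRCm38.p6, 300 bases long, from 250 bases before a transcription start to 50 after it. The table held windows for 7 of the 9 receptors, 3 of them for Ccrl2, of which the first listed is printed. Ccrl2 lies at chr9:111057469-111057768 on the minus strand, Ccr9 at chr9:123766961-123767260 on the plus strand and Cxcr4 at chr1:128592250-128592549 on the minus strand. Capitals mark matches to any of 7 motifs searched on both strands, and overlapping matches were allowed.
Ccrl2: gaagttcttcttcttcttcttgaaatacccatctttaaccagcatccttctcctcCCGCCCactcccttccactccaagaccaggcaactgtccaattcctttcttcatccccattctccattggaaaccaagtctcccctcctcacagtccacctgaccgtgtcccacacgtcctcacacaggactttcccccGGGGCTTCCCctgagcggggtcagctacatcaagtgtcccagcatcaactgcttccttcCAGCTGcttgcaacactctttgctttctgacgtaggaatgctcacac
Ccr9: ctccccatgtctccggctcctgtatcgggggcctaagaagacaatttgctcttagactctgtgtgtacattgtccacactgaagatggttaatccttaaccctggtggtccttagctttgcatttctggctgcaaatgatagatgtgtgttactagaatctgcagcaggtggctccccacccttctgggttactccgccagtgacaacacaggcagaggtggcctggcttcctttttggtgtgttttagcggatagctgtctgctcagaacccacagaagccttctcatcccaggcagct
Cxcr4: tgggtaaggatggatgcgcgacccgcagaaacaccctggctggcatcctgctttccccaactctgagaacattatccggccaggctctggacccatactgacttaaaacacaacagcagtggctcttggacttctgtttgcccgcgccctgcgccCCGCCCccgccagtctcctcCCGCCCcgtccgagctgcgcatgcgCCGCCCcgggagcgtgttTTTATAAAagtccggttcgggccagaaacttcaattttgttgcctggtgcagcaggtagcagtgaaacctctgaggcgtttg
The motifs were the NF-kB site, the AP-1 site TGANTCA, the GAS element TTCNNNGAA, the TATA box TATAAA, the GC box GGGCGG, the Runx site TGTGGT and the E-box CAGCTG, and they were picked after the Ccrl2 window had been read. The printed Ccrl2 window held 1 NF-kB match beginning 56 bases before the start, 1 GC box and 1 E-box. An NF-kB match occurred in 8.46% of all 32851 windows, a GC box in 35.7% and this E-box in 16.3%. The other Ccrl2 windows held no NF-kB match. The Ccr9 window held none of the 7 motifs. The Cxcr4 window held 2 overlapping TATA box matches and 3 GC boxes, and a TATA box match occurred in 13.6% of all windows. The start of Cxcr6 lies 39.3 kb from that of Ccr9 on chromosome 9, and that of Ccr1 lies 201.5 kb from it. These matches describe the letters only.

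Ccrl2, the atypical chemerin-binding receptor, was lower in SS than in SI mice on both slides. Its scaled log2 signal was 5.24, 4.92, 4.82 and 4.79 in SS labelled males 1, 2, 3 and 01b, against 6.10, 5.80, 6.07 and 7.08 in SI labelled males 4, 5, 6 and 7. In labelled females it was 4.38 in SS mice 20 and 21 together, 4.16 in SS mouse 22 and 3.73 in SS mouse 23, against 4.80 and 5.36 in SI mice 27 and 28. The value of SS mouse 23 was not above background. On the arrays of labelled females the lowest signal of any probe that counted as above background lay between 3.03 and 4.36. Every SS sample lay below every SI sample of its slide, and SS male 3 and SI male 4 were on the side of their own labels. Such a separation in this direction on both slides held for 0.525% of the tested probes. Over both slides, with the slide as a term, Ccrl2 fell by 1.19 ± 0.23 on the log2 scale in SS mice (SE, 7 SS and 6 SI samples), with a 95% interval of -1.68 to -0.71, and passed the limma test at adjusted p = 0.0104. The exact permutation test within slides, two-sided, gave p = 0.00143, the smallest that 700 regroupings allow.

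Within each slide the change of Ccrl2 had the same direction but did not pass after adjustment. It averaged 4.94 in SS labelled males against 6.26 in SI labelled males, a log2 change of -1.32 ± 0.29 (limma adjusted p = 0.118, n = 4 each; exact permutation p = 0.0286, the smallest that 70 regroupings allow). It averaged 4.09 in SS labelled females against 5.08 in SI labelled females, a log2 change of -0.99 ± 0.37 (limma adjusted p = 0.212, 3 against 2; exact permutation p = 0.1, the smallest that 10 regroupings allow). The change in labelled males minus that in labelled females was -0.33 ± 0.47, with a 95% interval of -1.35 to 0.70 (limma adjusted p = 0.75). No probe at all passed in labelled males, so 0% were called higher and 0% lower there, at a lowest adjusted p of 0.118, although 5231 of 24011 probes had an unadjusted p under 0.05. Without SI male 4 the change of Ccrl2 in labelled males was -1.37 (adjusted p = 0.0221), and without SS male 3 it was -1.28 (adjusted p = 0.0904). Without SI male 4, 20.5% of all tested probes were called higher and 14.3% lower on this slide, so calls of single receptors in that setting stand among many. Over both slides the call was lost with scaling to the median of all probes (-1.33, adjusted p = 0.114) and with normexp background correction followed by quantile normalization (-0.46, adjusted p = 0.0558). Over its 23 alternatives the adjusted p lay between 0.00515 and 0.114.

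Chemerin itself (Rarres2) and its signalling receptor Cmklr1 were above background on 0 of 14 arrays, as was Gpr1, another chemerin receptor. So Ccrl2 was the chemerin-binding receptor of the list with a measurable level in these samples.

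Ccr9, the receptor for Ccl25 that directs lymphocytes to the small intestine and marks plasmacytoid dendritic cells and thymocytes, was higher in SS labelled males. It had 5.77, 6.15, 5.88 and 6.38 in SS labelled males 1, 2, 3 and 01b, against 5.55, 5.09, 4.34 and 4.52 in SI labelled males 4, 5, 6 and 7. The groups did not overlap: every SS sample lay above every SI sample, as did 8.4% of tested probes on this slide. The log2 change was 1.17 ± 0.34 (n = 4 each), a 2.25-fold difference, and did not pass after adjustment (limma adjusted p = 0.118; exact permutation p = 0.0286, the smallest possible here). Without SI male 4 it was 1.40 (adjusted p = 0.0221), and without SS male 3 it was 1.23 (adjusted p = 0.0954).

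Over both slides the log2 change of Ccr9 was 0.99 ± 0.27 (7 SS and 6 SI samples), with a 95% interval of 0.41 to 1.57, and it passed narrowly (limma adjusted p = 0.0423; exact permutation p = 0.01). This call exists only because arrays 20 and 21 were counted as 1 sample: with 14 samples the change was 0.92 ± 0.30 (adjusted p = 0.0805). It was also lost when any of 10 of the 13 samples was left out, with adjusted p between 0.0182 and 0.117 over the 13 leave-outs. Over all 23 alternatives it lay between 0.0105 and 0.145. The 6 arrays of labelled females enter this estimate although Ccr9 was above background on none of them, so no fold is given for that slide. Ccr9 averaged 5.46 in labelled males, and the lowest signal that counted as above background in labelled females averaged 3.68. Set against that level, Ccr9 was 3.45-fold higher in labelled males, a difference in which sex label and slide cannot be told apart. The level is the lowest of any probe and no strict limit for Ccr9, which entered the test only through the arrays of labelled males.

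Read against all probes, 1 receptor of 8 was called higher and 1 lower over both slides, where 6.59% of tested probes were called higher and 0.317% lower. A difference in bulk blood cannot tell fewer cells of a type from less RNA per cell. Platelet and megakaryocyte genes moved with the stress groups in these samples: 20 of 20 tested members were higher in SS mice over both slides, with a median log2 change of 1.55. Their log2 summed signal lay between 18.91 and 19.69 in SS labelled males against 17.18 and 18.95 in SI labelled males, and between 18.98 and 19.34 in SS labelled females against 17.29 and 17.67 in SI labelled females. Neutrophil markers moved in labelled females: 6 of 18 were lower in SS mice there, where 0.167% of all tested probes were called lower. Among the 6 were Ltf at -5.03 ± 0.78 and Camp at -4.86 ± 0.66 (limma adjusted p = 0.0319 and 0.0232), and the median of the 18 was -1.84. The log2 summed signal of that list lay between 16.71 and 17.02 in SS labelled females against 18.34 and 18.92 in SI labelled females, and between 17.42 and 17.58 in SS labelled males against 16.80 and 17.44 in SI labelled males. In labelled males none of the 18 passed and their median was 0.25, with 11 changes positive and 7 negative. Ltf and Camp were at 1.48 ± 0.61 and 1.51 ± 0.51 there (limma adjusted p = 0.189 and 0.133). For the difference between the slides 3 of the 18 passed, Camp, Ngp and Lcn2 (limma adjusted p = 0.0244 each), where 0.025% of all tested probes were called. Of 17 monocyte markers 1 was lower over both slides, Nr4a1 (-0.91 ± 0.23, adjusted p = 0.03), and 1 higher, F13a1, which platelets also carry (1.30 ± 0.28, adjusted p = 0.0133). Of 12 NK and cytotoxic cell markers 12 had a negative change over both slides and 0 passed, with a median of -0.74 against -0.040 over all tested probes. Their log2 summed signal lay between 12.48 and 13.53 in SS labelled females against 14.41 and 14.49 in SI labelled females, where 20.6% of single tested probes separated with SS lower. In labelled males it overlapped, between 11.4 and 13.4 in SS against 11.2 and 13.7 in SI samples. No dendritic cell marker of 11 and no T cell marker of 15 passed over both slides. The part of platelets or of any cell type in the changes of Ccrl2 and Ccr9 was not tested.

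**Figure D1:**
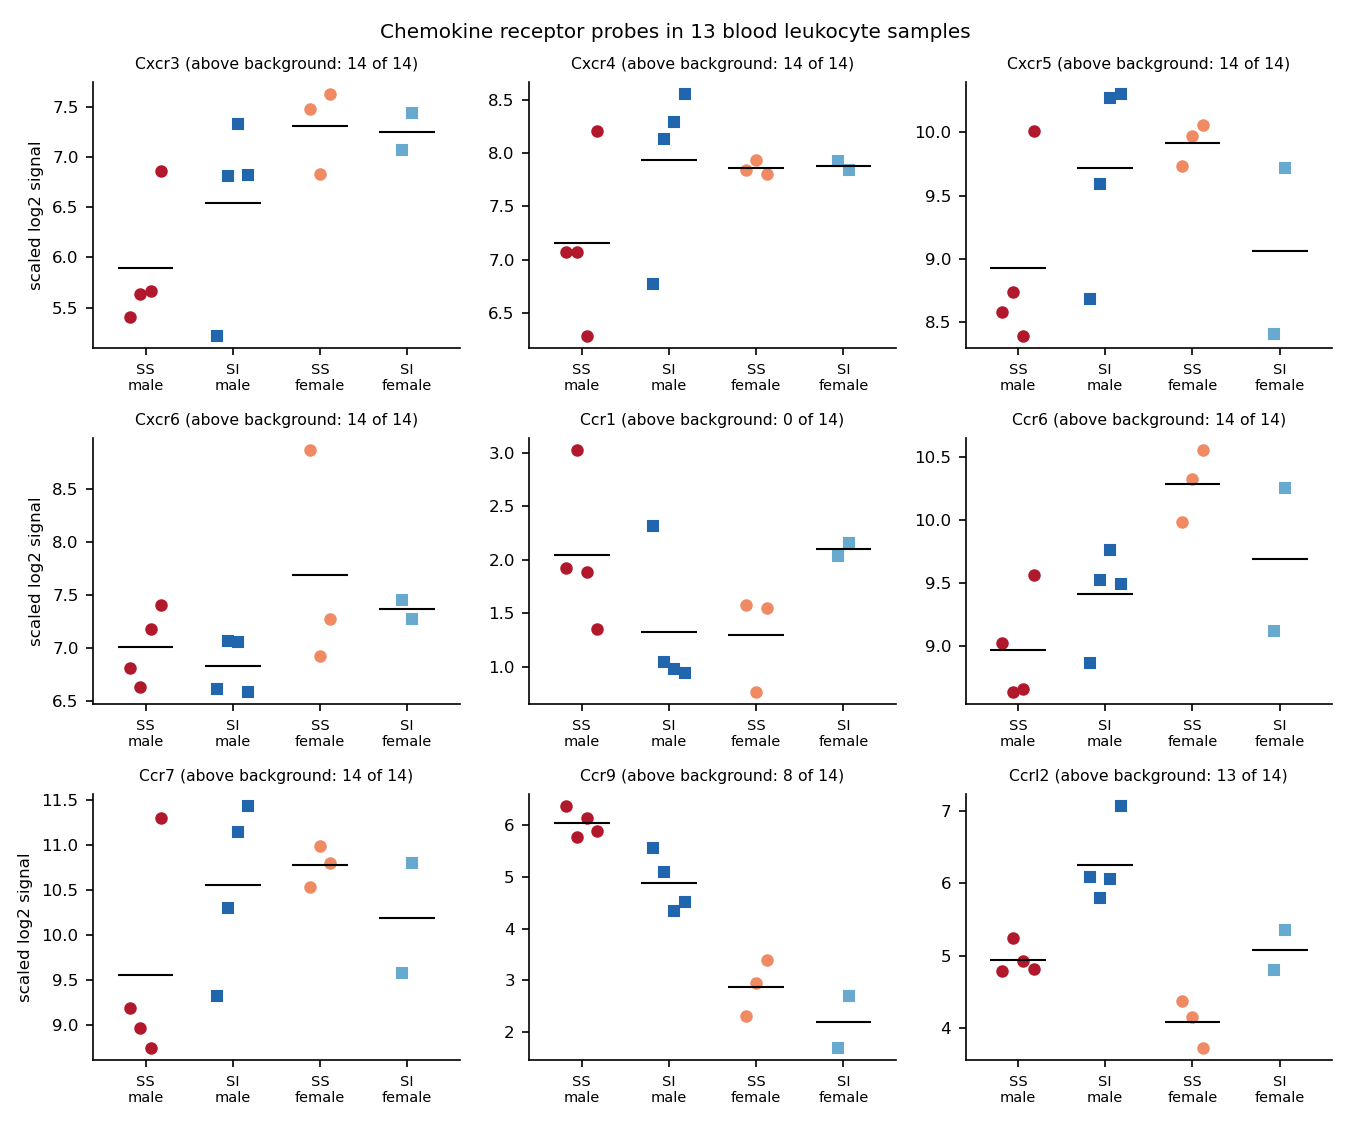
Scaled log2 signal (vertical axis, a separate range for each panel) of the 9 receptors in 13 samples, with SS left of SI among labelled males and then among labelled females; points are samples (mice 20 and 21 are 1 point) and lines are group means. Ccrl2 is lower in every SS sample than in every SI sample of its slide, Ccr9 separates the groups only among labelled males where it is above background, and Cxcr3, Cxcr4, Cxcr5, Ccr6 and Ccr7 each show 1 high SS male and 1 low SI male.

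Cxcr5, the receptor for Cxcl13 carried by B cells and follicular helper T cells, did not differ over both slides, and its samples split in a way the stress labels do not follow. It had 8.74, 8.39 and 8.58 in SS labelled males 1, 2 and 01b and 10.01 in SS male 3, against 8.69 in SI male 4 and 9.59, 10.27 and 10.30 in SI males 5, 6 and 7. So SS male 3 lay with the high SI males, SI male 4 lay with the low SS males, and the groups overlapped. The log2 change was -0.78 ± 0.45 in labelled males (limma adjusted p = 0.307, n = 4 each). In labelled females it had 9.73, 9.97 and 10.06 in the 3 SS samples against 8.41 and 9.72 in SI mice 27 and 28. These did not overlap, as for 18.5% of tested probes with SS higher and 20.6% with SS lower on this slide, and the change was 0.86 ± 0.58 (limma adjusted p = 0.555, 3 against 2). On this slide 0.187% of tested probes were called higher and 0.167% lower, and no receptor was among them. With scaling to the 75th percentile of all probes the called probes there were 550 higher and 68 lower, against 45 and 40.

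Ccr7, the receptor for Ccl19 and Ccl21 on naive lymphocytes and mature dendritic cells, was split in the same way among labelled males. It had 8.97, 8.75 and 9.19 in SS males 1, 2 and 01b and 11.30 in SS male 3, against 9.32 in SI male 4 and 10.30, 11.15 and 11.43 in SI males 5, 6 and 7. Its log2 change was -0.995 ± 0.58 there (limma adjusted p = 0.317) and 0.59 ± 0.75 in labelled females (adjusted p = 0.783). Ccr6, the receptor for Ccl20 on B cells and mucosal T cells, had 8.63, 8.66 and 9.03 in SS males 1, 2 and 01b and 9.56 in SS male 3, against 8.86 in SI male 4 and 9.53, 9.76 and 9.49 in SI males 5, 6 and 7. Its change was -0.44 ± 0.31 in labelled males (adjusted p = 0.394) and 0.60 ± 0.41 in labelled females (adjusted p = 0.555). In labelled females the SS samples of Ccr6 lay between 9.98 and 10.56 and the SI samples at 9.12 and 10.25, and those of Ccr7 lay between 10.54 and 10.99 against 9.58 and 10.80, so both overlapped.

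The changes of Cxcr5, Ccr6 and Ccr7 were negative in labelled males and positive in labelled females, but the difference between the slides did not pass for any of them. In labelled males minus labelled females it was -1.64 ± 0.73 for Cxcr5 (unadjusted p = 0.0435, limma adjusted p = 0.415), -1.04 ± 0.51 for Ccr6 (adjusted p = 0.452) and -1.58 ± 0.95 for Ccr7 (adjusted p = 0.524). Over all tested probes 0.025% were called for this difference. Over both slides the 95% intervals for SS minus SI were -1.04 to 0.71 for Cxcr5, -0.65 to 0.55 for Ccr6 and -1.47 to 0.67 for Ccr7. These intervals do not show that SS and SI were alike. Without SI male 4, the change in labelled males was -1.13 for Cxcr5 (adjusted p = 0.0533), -0.62 for Ccr6 (0.12) and -1.41 for Ccr7 (0.0691). Without SS male 3 it was -1.14 (0.118), -0.64 (0.188) and -1.58 (0.0927) in the same order.

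**Figure D2:**
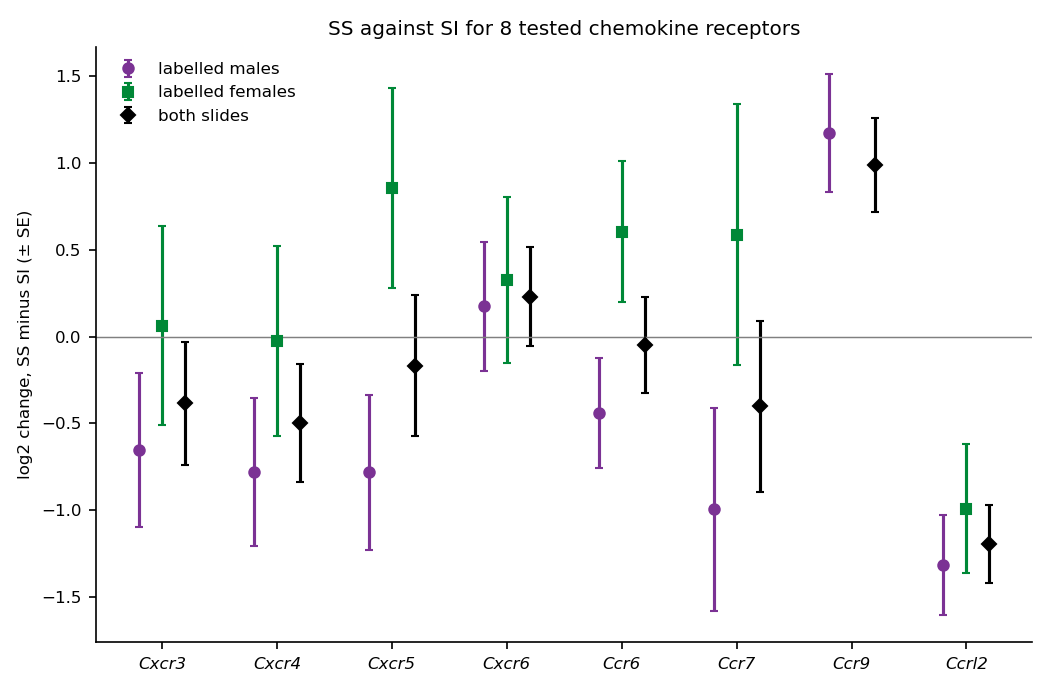
Log2 change, SS minus SI, of the 8 tested receptors (vertical axis; bars are SE from limma) on the slide of labelled males, on the slide of labelled females and over both slides; no value is drawn for Ccr9 in labelled females, where it was not above background. Ccrl2 lies below 0 in all 3 comparisons, and Cxcr5, Ccr6 and Ccr7 lie below 0 in labelled males and above 0 in labelled females.

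B cell markers showed the same split of samples as these 3 receptors, and other lists were divided in a like way among labelled males. The mean scaled log2 signal of 16 B cell genes was 8.61, 8.50 and 8.60 in SS labelled males 1, 2 and 01b and 9.46 in SS male 3, against 8.60 in SI male 4 and 9.23, 9.54 and 9.40 in SI males 5, 6 and 7. In labelled females it was 9.33, 9.55 and 9.76 in the SS samples against 8.37 and 9.39 in SI mice 27 and 28. Low samples for the markers were low samples for Cxcr5, Ccr6 and Ccr7 on both slides. None of the 16 B cell genes passed over both slides in limma, and Cd22, the one with the lowest p there, had a log2 change of 0.57 ± 0.31 (adjusted p = 0.352). Cd22 went against most of the list, at 1.05 ± 0.33 in labelled males (adjusted p = 0.122) and -0.24 ± 0.43 in labelled females (adjusted p = 0.857). Of the 16 changes 14 were negative in labelled males and 15 were positive in labelled females. The median log2 change of the 16 was -0.52 in labelled males and 0.75 in labelled females, against 0.089 and -0.10 over all tested probes. The mean of 15 T cell genes was 5.67, 5.97 and 5.81 in SS males 1, 2 and 01b and 7.42 in SS male 3, against 6.10 in SI male 4 and 6.44, 8.10 and 6.83 in SI males 5, 6 and 7. The mean of 15 receptors for other attractants and for egress was 8.18, 7.98 and 8.24 in SS males 1, 2 and 01b and 8.51 in SS male 3, against 7.92 in SI male 4 and 8.61, 8.66 and 8.59 in SI males 5, 6 and 7. The mean of 10 erythroid genes divided the same labelled males in the opposite direction. It was 11.52, 11.90 and 12.34 in SS males 1, 2 and 01b and 13.51 in SI male 4. In SS male 3 it was 10.10, and in SI males 5, 6 and 7 it was 11.23, 11.05 and 9.73. The split was therefore seen in more than the B cell genes. In labelled males brightness before scaling divided the samples in the same way as the B cell genes. The part of brightness or of erythroid RNA in the split was not tested.

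**Figure D3:**
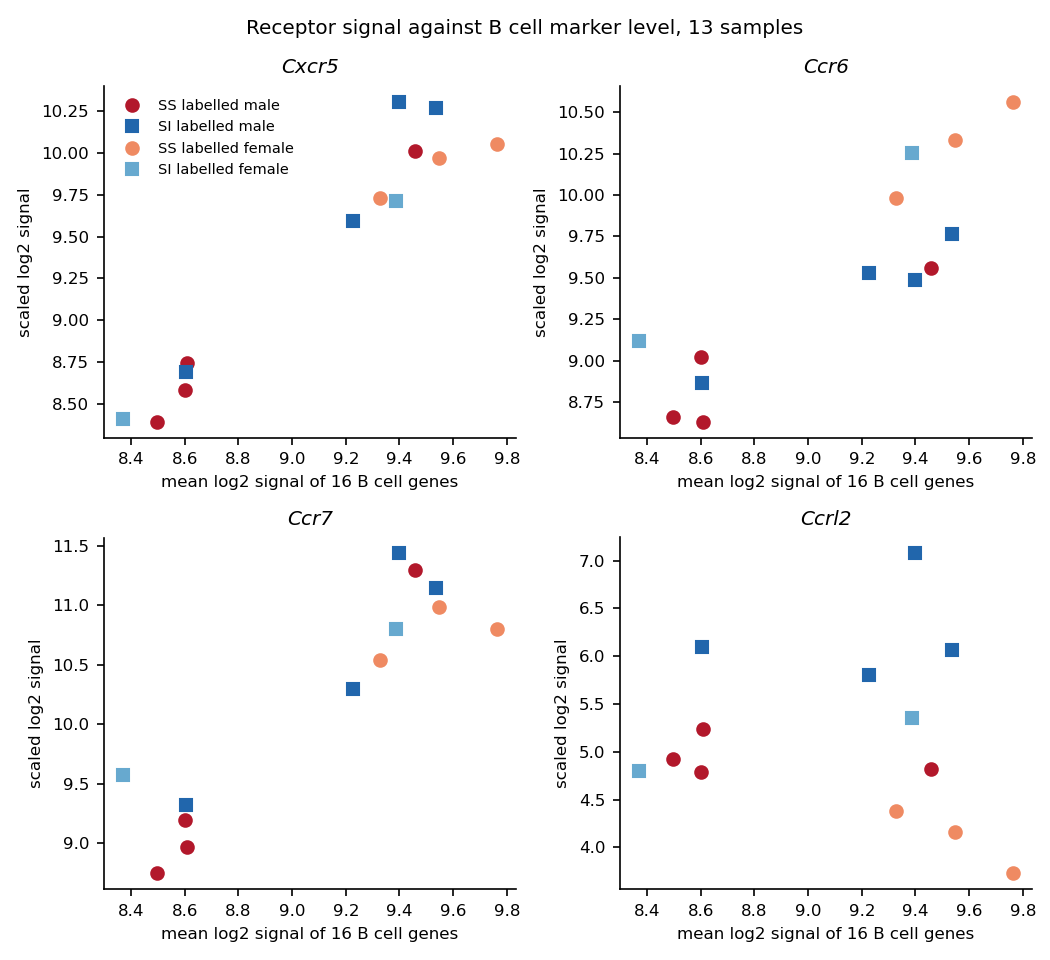
Scaled log2 signal of Cxcr5, Ccr6, Ccr7 and Ccrl2 (vertical axes) against the mean scaled log2 signal of 16 B cell genes (horizontal axes) in 13 samples. For Cxcr5, Ccr6 and Ccr7 a lower set of 3 SS males, SI male 4 and SI female 27 lies apart from the other 8 samples, while Ccrl2 separates SS from SI males at low and at high B cell level.

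Cxcr3, the receptor of activated T and NK cells for Cxcl9 and Cxcl10, had 5.64, 5.66 and 5.41 in SS labelled males 1, 2 and 01b and 6.86 in SS male 3, against 5.22 in SI male 4 and 6.81, 7.33 and 6.82 in SI males 5, 6 and 7. In labelled females it lay between 6.83 and 7.63 in SS samples against 7.07 and 7.43 in SI samples. The groups overlapped on both slides. Its log2 change was -0.65 ± 0.44 in labelled males (limma adjusted p = 0.377), 0.063 ± 0.57 in labelled females (adjusted p = 0.978) and -0.38 ± 0.35 over both slides (adjusted p = 0.578).

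Cxcr4, the Cxcl12 receptor that nearly all leukocytes carry, had 7.07, 6.28 and 7.07 in SS labelled males 1, 2 and 01b and 8.20 in SS male 3, against 6.77 in SI male 4 and 8.13, 8.29 and 8.56 in SI males 5, 6 and 7. In labelled females all 5 samples lay within 7.80 and 7.94. The spread among labelled males was therefore wider than that among labelled females, and the groups overlapped on both slides. Its log2 change was -0.78 ± 0.42 in labelled males (limma adjusted p = 0.292), -0.024 ± 0.55 in labelled females (adjusted p = 0.993) and -0.50 ± 0.34 over both slides (adjusted p = 0.459). Without SI male 4 both receptors passed in labelled males, Cxcr4 at -1.17 (adjusted p = 0.0313) and Cxcr3 at -1.09 (adjusted p = 0.0351), where 14.3% of all tested probes were called lower. Without SS male 3 neither did, at -1.13 (adjusted p = 0.111) and -0.97 (adjusted p = 0.157).

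Cxcr6, the Cxcl16 receptor of tissue-homing T and NK T cells, followed none of these splits. Its brighter probe had 6.63, 7.18, 7.40 and 6.81 in SS labelled males 1, 2, 3 and 01b, against 6.61, 7.07, 7.06 and 6.59 in SI labelled males 4, 5, 6 and 7. In labelled females it had 8.87 in SS mice 20 and 21 together, 6.93 in mouse 22 and 7.27 in mouse 23, against 7.46 and 7.27 in SI mice 27 and 28. The sample of mice 20 and 21 stood above all others, and the remaining samples of both groups overlapped. The log2 change was 0.17 ± 0.37 in labelled males (limma adjusted p = 0.783), 0.32 ± 0.48 in labelled females (adjusted p = 0.813) and 0.23 ± 0.28 over both slides (adjusted p = 0.684). The dimmer probe gave 0.30, 0.35 and 0.32 in those comparisons and passed in none. In labelled males the log2 change of the brighter probe was 0.10 without SI male 4 (adjusted p = 0.837) and 0.042 without SS male 3 (adjusted p = 0.94).

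Levels also differed between the slides, where sex label, slide and day of scan coincide. The median of labelled males minus that of labelled females was 1.14 for Ccrl2, -1.19 for Cxcr3, -0.996 for Ccr6, -0.99 for Ccr7, -0.56 for Cxcr5, -0.34 for Cxcr6 and -0.24 for Cxcr4 on the log2 scale. The ranges of the slides overlapped for each of these 7 receptors. The slides did not overlap for Ccr9, described above, but it was above background on no array of labelled females. It entered the test only through the arrays of labelled males, so this lack of overlap is no separate result.

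The genes most like each receptor were taken as those with the highest Pearson correlation over the 13 samples after the mean of each slide was subtracted, among 11480 named genes. For Cxcr5 these were Pou2af1, a B cell coactivator (r = 0.992), Gimap6 (0.991) and Cd79b, the signalling chain of the B cell receptor (0.991). For Ccr6 they were Ppp1r16b (0.979), Tut1 (0.973) and S1pr1, the receptor that lymphocytes need to leave lymphoid tissue (0.972). For Ccr7 they were Hes5 (0.986), Mcm5 (0.985) and Tnk2 (0.980), for Cxcr3 Rbm12 (0.985), Ncoa6 (0.971) and Nup153 (0.970), and for Cxcr4 Rnf31 (0.974), Ccm2 (0.973) and Xpa (0.972). The samples share slides and the split among labelled males, so these high values describe that split as much as any single gene. Cxcr6 reached 0.824 with Enpp4, 0.816 with Usp18 and 0.775 with Klk1b22.

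Ccr9 was most like Slc8a3 (r = 0.948), Pdcd4 (0.944) and 1700066B19Rik (0.943), but 5 of the 13 values of Ccr9 come from labelled females, where it was not above background. Ccrl2 was most like Fbxo10 (0.909), Uxt (0.895) and Mrpl2 (0.890). Ccrl2 differed between SS and SI within slides, so genes chosen for their likeness to it tend to share that difference. Their log2 changes over both slides were -1.33, -0.32 and -0.50 in the same order (limma adjusted p = 0.0104, 0.194 and 0.0351). Because the genes were picked by likeness, these values are no separate result.

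Among 9 other tested chemokine receptors, of 17 listed, 1 was lower in SS mice over both slides and none higher. That was Cxcr1, a neutrophil receptor for Cxc chemokines, with a log2 change of -1.78 ± 0.49 (limma adjusted p = 0.0473). On the slides it was -1.38 in labelled males (adjusted p = 0.219) and -2.43 in labelled females (adjusted p = 0.144), beside the medians of the neutrophil markers of 0.25 and -1.84 given above, whose part was not tested. Of the ligands of the 9 receptors, 12 of 19 were tested, 2 were higher and none lower. Ccl25, the ligand of Ccr9, had a log2 change of 0.83 ± 0.21 (adjusted p = 0.0253), and Pf4, a chemokine of platelet granules, 1.41 ± 0.27 (adjusted p = 0.0104). Of 5 tested other chemokines, of 21 listed, 2 were higher: Ppbp, also stored in platelets, at 1.31 ± 0.28 (adjusted p = 0.0125) and Mif, a macrophage cytokine, at 0.80 ± 0.18 (adjusted p = 0.0158). Ppbp and Pf4 are themselves among the 20 platelet and megakaryocyte genes given above, and the part of platelets was not tested. Among all tested probes 6.59% were called higher and 0.317% lower. The median log2 changes were -0.11 for the other receptors, -0.36 for the ligands and -0.36 for the other chemokines, against -0.040 over all tested probes.

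Of 32 tested genes of signalling below the receptors, 4 were higher and none lower in SS mice over both slides, where 6.59% of all tested probes were higher and 0.317% lower. They were Grk5, a kinase that desensitises receptors, at 1.29 ± 0.25 (limma adjusted p = 0.0104), Rac1, a GTPase of cell movement, at 0.92 ± 0.19 (adjusted p = 0.0111), Stk4, a kinase of lymphocyte adhesion, at 0.77 ± 0.18 (adjusted p = 0.0171) and Rap1b, an integrin-activating GTPase abundant in platelets, at 0.63 ± 0.18 (adjusted p = 0.0461). The median of the 32 was -0.25. Of 15 tested receptors for other attractants and for egress, none passed in limma. The 4 with the lowest p were Ptafr, the receptor for platelet-activating factor, at -0.93 (adjusted p = 0.0929), Fpr1 and Fpr2, receptors for bacterial formyl peptides, at -0.90 (adjusted p = 0.154) and -0.95 (adjusted p = 0.197), and Selplg, the selectin ligand of rolling leukocytes, at -0.68 (adjusted p = 0.188). No gene of these 5 lists passed on a single slide.

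**Figure D4:**
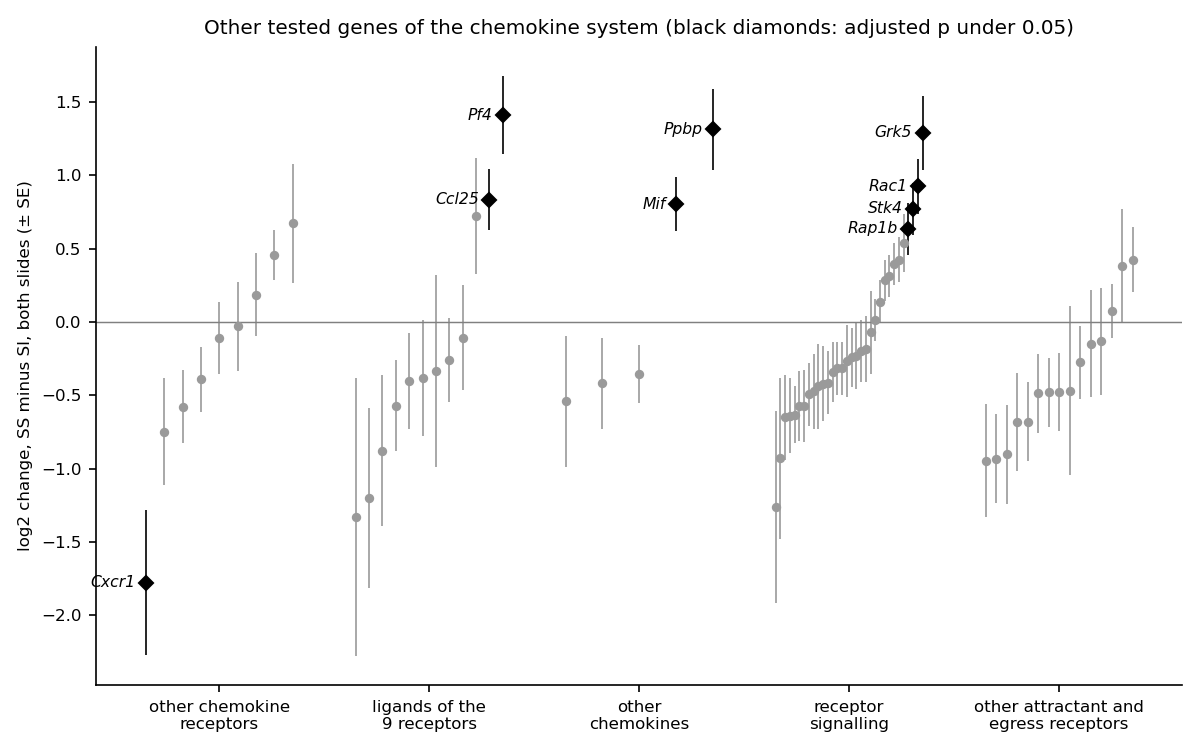
Log2 change, SS minus SI, over both slides (vertical axis; bars are SE from limma) of the tested genes of 5 lists, sorted within each list along the horizontal axis. Black diamonds mark the 9 genes with an adjusted p under 0.05, of which Cxcr1 is lower in SS mice and the other 8 are higher.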

How the data were processed

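Scanner files of 14 arrays held fluorescence intensity, and per the file headers the deposited processed signal had been background-subtracted and detrended by Agilent Feature Extraction 10.7.3.1. The submitters' processing notes name version 9.1. Build mm9 is named in the submitters' processing notes. The authors also deposited values on the log2 scale, which were used only as an alternative. That file has 27990 rows, the same maximum of 17.7407 in every column, correlations of at least 0.974 with the log2 processed signal of its array, and an unstated normalization.

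Control spots were left out, and outlier spots were left out unless every spot of a probe was an outlier. A probe with 1 spot, as each receptor probe has, therefore kept its value. Spots of a probe were averaged as log2 signal, and each array was scaled to the 75th percentile of the 14501 probes well above background on all 14 arrays, since only 34.8% to 47.7% of spots were. Symbols came from RefSeq (GRCm38.p6), matching 26425 of 31063 RefSeq-type probes, and a gene is its brightest tested probe. SS was compared with SI with limma 3.58.1 in R 4.3.3 (data.table, version 1.17.8) over both slides with the slide as a term, and in a 4-group fit for each slide and for their difference. P-values (two-sided) were corrected over 24011 probes by Benjamini-Hochberg, with a threshold of 0.05, and a confidence interval is 95%. The number of arrays limits the precision. Per the labels each array is from its own mouse, so p-values measure the spread between the 13 samples. The code was tested on simulated data. Figures were drawn with matplotlib 3.10.9 in python 3.11.15.

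The planned fit held 14 samples. The arrays of mice 20 and 21 were averaged as 1 sample after results with 14 had been seen, and both values are given where the call differs. The genes named are the receptors, the 3 genes most correlated with each, and in every other chemokine list the genes that passed in any comparison or else up to 4 with the lowest p over both slides. The members and the lists were chosen with earlier results of these data known.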

Additional observations from a re-analysis of the deposited data

Results flagged for a closer look

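In the 18 groups of 4 samples that were checked for a sample far from the others, chance marks about 1 in 20, and 1 was marked. It was Ccr1 in SI labelled males, where mouse 4 had a scaled log2 signal of 2.31 and mice 5, 6 and 7 had 1.04, 0.98 and 0.94. Ccr1 was not above background on any of these arrays, and mouse 4 had the dimmest of them before scaling.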

How the results depend on the processing

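For the 8 tested receptors, 30 changes were recomputed, which gave 718 values; 663 kept direction and side of the threshold, 17 lost a call, 16 gained one and 22 uncalled values turned sign. Ccrl2 over both slides kept its direction in all of them where it was tested and lost its call in 2; Ccr9 kept its direction and lost its call in 15. Neither was tested among probes above background on all 14 arrays.

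Of the receptors, 2 were called over both slides. The number was 0 with scaling to the median and with the filter on all 14 arrays (where the 2 were not tested), 1 with normexp, with the value table, without a filter, with a mean-variance trend and with mice 20 and 21 as 2 samples, and 4 (1 higher, 3 lower) with array quality weights, which called 41.2% of all probes. With those weights 7 were called in labelled males and 3 for the difference between the slides, against 0 each, where 59.8% and 18.4% of all probes were called. Leaving out 1 sample gave 1 to 2 over both slides and 0 to 4 in labelled males, where SI male 4 alone gave calls.

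Signs turned as follows. In labelled males Cxcr6 was -0.0040 with the 75th percentile of all probes and -0.34 with the median. In labelled females Cxcr4 was 0.15 and 0.46 in those settings, 0.028 with quantile normalization and 0.064 with array row as a block. Cxcr5 over both slides was 0.12 in the value table. Leave-outs spanned -0.51 to 0.0084 for Cxcr5 and -0.31 to 0.058 for Ccr6 over both slides, -0.12 to 0.30 for Cxcr3, -0.070 to 0.022 for Cxcr4, -0.27 to 0.71 for Cxcr6 and -0.023 to 1.20 for Ccr7 in labelled females, and -0.53 to 0.44 for the difference of Cxcr6. Against the scaling used, the median moved the change of all probes by -0.51 on the slide of labelled males and by 0.49 on the other, and the 75th percentile of all probes by -0.18 and 0.18.

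The probes called over both slides were 1658, against 0 with median scaling, 740 without a filter, 9900 with weights and 1134 to 3138 over the leave-outs. In labelled males they were 0, against 2 with quantile normalization, 101 in the value table, 14363 with weights and 0 to 8353. In labelled females they were 85, against 618 (75th percentile of all probes), 1196 (median), 137 (quantile), 613 (normexp), 172 (value table), 7 (no filter), 626 (all 14 arrays), 1352 (weights), 620 (trend), 23 (array row), 964 (20 and 21 apart) and 3 to 1314. For the difference they were 6, against 14 (quantile), 3 (normexp), 17 (value table), 4425 (weights), 11 (20 and 21 apart) and 0 to 58. The cause of these shifts was not tested. By the weaker detection flag Ccr1 was present on 3 arrays and Ccr9 on 13. No paired analysis was possible because no mouse number occurs in both stress groups. Signal near background limits Ccr1, Ccr9 and Ccrl2.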
